A study of Homo sapiens with 58 samples.

Results

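12 established breast cancer cell lines were set against each other: 5 estrogen receptor positive luminal lines in which HER2 is not amplified (T47D, CAMA1, MDAMB175VII, ZR751 and KPL1) and 7 triple-negative basal A lines (HCC1806, HCC1937, HCC70, HCC1143, HCC1187, BT20 and MDAMB468). These 12 are part of a series of 58 lines, each measured at baseline on 1 Affymetrix array, and the other 46 lines were assigned to neither side. The titles name the lines but give no subtype. The lines were therefore chosen by their name and their published class, which is textbook knowledge and rests partly on earlier measurements of receptors and transcripts in the same lines. No line was treated, all were grown as the vendor advises, and their total RNA was put through NuGEN amplification before biotin labelling. Each line descends from 1 tumour and was measured once, so the SD and the p-values below describe the spread between lines of a side, and the number of arrays limits the precision. KPL1 is known as a derivative of MCF-7, and HCC1806 came from a squamous carcinoma of the breast.

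Luminal and basal epithelial cells are the inner and outer layers of the mammary duct. Luminal cells that respond to hormones carry the estrogen receptor, a nuclear receptor encoded by ESR1 that binds DNA together with the pioneer factor FOXA1 and with GATA3. Basal cells face the basement membrane and build stratified keratins such as keratin 5, and tumours that resemble them usually lack the estrogen and progesterone receptors and often hold much epidermal growth factor receptor.

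Levels are given as log2 intensities. A difference is the mean of the ER-positive luminal lines minus the mean of the basal A lines in log2 units, so that 1 unit is a 2-fold change in intensity and a positive value means higher in the luminal lines. A gene counted as changed where limma's moderated test, adjusted with Benjamini-Hochberg over all 14850 genes tested, gave an adjusted p under 0.05. Probe sets for viral transcripts served as a measure of background, which is taken here as their 95th percentile in the 12 lines, a level of 5.56. The arrays had medians between 5.44 and 5.53, and the width of an array's relative log expression (its interquartile range) was 0.52 to 0.62 in the luminal lines and 0.57 to 0.64 in the basal A lines. The highest correlation between 2 of the 12 arrays over all probe sets was 0.956. Each array read the RNA of a whole culture, so fewer cells with a transcript and less of it per cell cannot be told apart.

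The 4 markers that name the sides differed in the direction of the names. ESR1 was higher in the luminal lines, with levels of 12.73 in T47D, 12.24 in CAMA1, 11.73 in MDAMB175VII, 12.69 in ZR751 and 12.45 in KPL1. In the basal A lines ESR1 read 9.34 in HCC1806, 10.01 in HCC1937, 7.73 in HCC70, 9.05 in HCC1143, 7.32 in HCC1187, 10.64 in BT20 and 9.02 in MDAMB468. The sides did not overlap, yet every basal A line lay above background for this probe set, and the median of the other 46 lines was only 4.91. The difference of 3.35 (SE 0.51) had an adjusted p of 0.0073 by limma. Of the 4 probe sets for ESR1, the others differed by 3.56, 2.13 and 0.53, all in the same direction.

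GATA3, a zinc finger factor of luminal cells, averaged 12.31 ± 0.43 in the luminal lines (SD, n = 5) and 9.74 ± 1.07 in the basal A lines (SD, n = 7), a difference of 2.57 (SE 0.47, limma adjusted p = 0.0169). Its lowest level was 7.65, in HCC1143. KRT5, the keratin of the basal layer, stood at background in all luminal lines, from 3.01 in CAMA1 to 4.62 in KPL1. Among the basal A lines it read 13.49 in HCC1806, 12.39 in HCC1937, 13.38 in HCC70, 12.86 in HCC1187, 12.42 in BT20 and 12.53 in MDAMB468, but only 6.04 in HCC1143. That line was thus the lowest of its side for both KRT5 and GATA3, although its KRT5 was still above all luminal lines. The KRT5 difference of -8.24 (SE 1.10, limma adjusted p = 0.00493) corresponded to 303-fold.

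EGFR, the epidermal growth factor receptor, ranged from 6.30 in KPL1 to 8.38 in T47D on the luminal side. On the basal A side it ran from 10.15 in HCC1937 to 13.18 in MDAMB468, with BT20 next at 12.22. Both of the highest lines are known from other work to carry extra copies of the gene, which were not measured here. The difference was -3.91 (SE 0.52, limma adjusted p = 0.00491), and all 6 probe sets for EGFR pointed the same way.

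The other receptors of the clinical classes separated the sides less evenly. PGR, the progesterone receptor and a product of estrogen signalling, read 11.55 in T47D, 11.03 in ZR751 and 9.84 in CAMA1. In MDAMB175VII and KPL1 it was at 2.71 and 2.74, which is within the 2.35 to 2.87 of the basal A lines. With a luminal SD of 4.47, its difference of 5.0 (SE 1.51) did not pass (limma adjusted p = 0.102). ERBB2, which encodes HER2, averaged 11.68 ± 0.65 in the luminal lines and 10.74 ± 0.88 in the basal A lines (SD, n = 5 and n = 7), a difference of 0.94 that did not pass either (SE 0.43, limma adjusted p = 0.269). The highest ERBB2 level among the 12 was 12.40, in MDAMB175VII, against 13.70 in the highest of the other 46 lines.

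**Figure D1:**
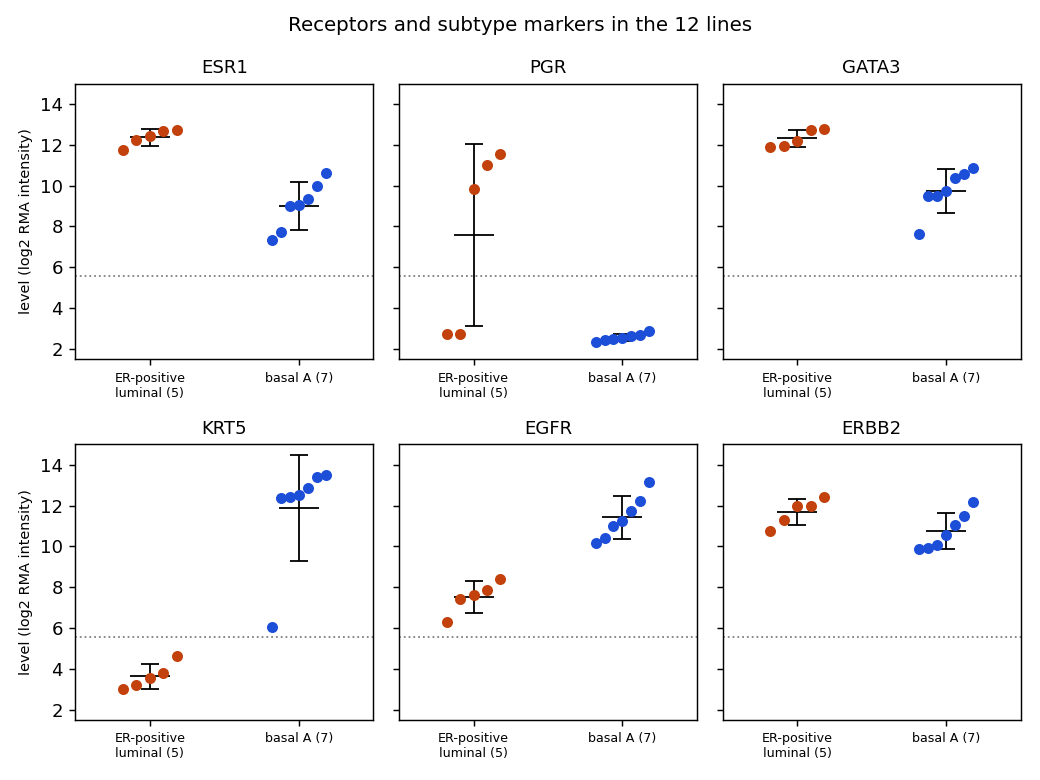
Levels of 6 receptor and subtype genes (vertical axis, log2 RMA intensity) in the 5 ER-positive luminal lines (left, orange) and the 7 basal A lines (right, blue) of each panel. Points are lines sorted by level, horizontal lines are means with bars of 1 SD, and the dotted line is the background of 5.56. ESR1, GATA3, KRT5 and EGFR do not overlap between the sides, KRT5 is at 6.04 in HCC1143, and PGR is at background in 2 luminal lines.

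Over the whole table, 371 genes changed, which was 2.50% of those tested. Of these, 182 were higher (1.23%) and 189 lower (1.27%) in the luminal lines, and 329 differed by at least 1 log2 unit. The differences reached 4-fold in 209 genes and 16-fold in 76, of which 31 were higher and 45 lower. The median difference over all genes tested was 0.05. Independently of the test, 442 genes (2.98%) had every line of one side above every line of the other, with the luminal lines above in 268 (1.80%) and the basal A lines above in 174 (1.17%). A gap of at least 1 log2 unit between the sides was rarer, with 22 genes where the luminal lines were above and 29 where the basal A lines were above. Of the 371 changed genes, 266 did not overlap and 105 did.

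The count depended on single lines and on the test used. It was 156 without ZR751, 204 without MDAMB175VII, 207 without HCC1937, 228 without MDAMB468, 236 without CAMA1, 238 without T47D, 244 without KPL1 and 245 without HCC70. With the width of the relative log expression as a term it was 192, and with a separate spread for each side 84. Each changed gene described below passed in all 12 fits that left out 1 line, unless a lower number is given as passes of 12. With that quality term, the list members and genes of the naming rule that are given with a lower number lost their call. The exceptions were RUNX3, CD44 and B3GNT5. ADAMTS19, KLK8, GREB1 and NMI, which passed without any 1 line, lost it too. Genes chosen after their values were seen that lost their call with it included GBP1, IRF1, IL15RA and ABCG1. So did COX7C, COX6C, COX14, ATP5F1D, NDUFB10 and NDUFC1, and of the promoter genes DDX60, CARINH, BTN3A3 and CDC42EP3. ATP5MC2 and ATP5MJ, also given with a lower number, kept theirs. Of the 60 changed genes chosen by the naming rule, 24 passed with a separate spread for each side.

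Of the genes that changed without overlap, those with the largest positive differences were led by NCAM2, a neural cell adhesion molecule. NCAM2 read 11.95 in T47D, 11.11 in CAMA1, 8.45 in MDAMB175VII, 7.95 in ZR751 and 8.33 in KPL1, against a lowest of 2.30, a median of 2.60 and a highest of 5.38 in the basal A lines. All 7 basal A lines were at background. The difference was 6.37 (SE 0.78, limma adjusted p = 0.00298). CA12, a membrane carbonic anhydrase and an estrogen receptor target, followed with levels of 11.91 in T47D, 10.48 in CAMA1, 11.23 in MDAMB175VII, 12.25 in ZR751 and 10.92 in KPL1. The basal A lines ran from 3.34 in HCC1187 to 7.48 in HCC1937, and the CA12 difference of 6.13 (SE 0.67, limma adjusted p = 0.00175) was 69.8-fold.

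Several of the other leading genes were uneven in the luminal lines and at one flat low level in every basal A line. TFF3, a secreted trefoil peptide of the luminal epithelium, ran from 7.33 in CAMA1 to 12.92 in MDAMB175VII in the luminal lines and kept to 4.42 to 4.89 in the basal A lines (difference 5.94, SE 0.70, limma adjusted p = 0.00243). AFF3, a nuclear factor of the AF4 family, was at 11.29, 11.11, 8.47, 4.84 and 8.84 in T47D, CAMA1, MDAMB175VII, ZR751 and KPL1, against 2.55 to 3.20 in the basal A lines. ZR751 was itself at background for AFF3, and only 1 of its 3 probe sets differed by more than 0.46. DNALI1, an axonemal dynein light intermediate chain, read 5.04 in CAMA1 and 9.35 to 11.75 in the other luminal lines, against 3.85 to 4.84 in the basal A lines. ADAMTS19, a secreted metalloprotease, was at 3.73 in T47D and between 6.20 and 10.30 in the other luminal lines, against 2.14 to 3.51 in the basal A lines. CAMA1 for DNALI1 and T47D for ADAMTS19 were at background, as were all basal A lines for both genes.

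CACNG4, OLFM1 and SLC9A2 varied less among the luminal lines. CACNG4, a calcium channel subunit, had the narrowest luminal spread of the 15 leading genes, with 10.79 ± 0.21 in the luminal lines against 5.73 ± 2.15 in the basal A lines (SD, n = 5 and n = 7), where HCC70 reached 9.24. OLFM1, a secreted olfactomedin domain protein, averaged 10.30 ± 0.50 in the luminal lines and 5.28 ± 1.37 in the basal A lines, where BT20 alone was above 5.05, at 8.36. SLC9A2, a sodium and hydrogen exchanger, averaged 9.81 ± 0.54 in the luminal lines and 5.03 ± 1.13 in the basal A lines. C14orf132 averaged 10.21 ± 0.71 in the luminal lines, with ZR751 lowest at 8.96, and 4.15 ± 2.21 in the basal A lines, with HCC1937 at 7.06, MDAMB468 at 7.60 and the other basal A lines at background. DEGS2, a sphingolipid desaturase and hydroxylase, had the smallest adjusted p of the 15 (difference 4.78, SE 0.47, limma adjusted p = 0.000955), with 8.61 in KPL1 and 9.97 to 11.46 in the other luminal lines against 5.38 to 6.42 in the basal A lines. PREX1, an exchange factor for Rac, LONRF2, a RING finger protein, and ELAPOR1, a membrane protein known as responsive to estrogen, had differences of 4.68, 4.56 and 4.73, and PREX1 and LONRF2 ran from 9.98 to 12.85 and from 6.65 to 9.36 in the luminal lines.

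**Figure D2:**
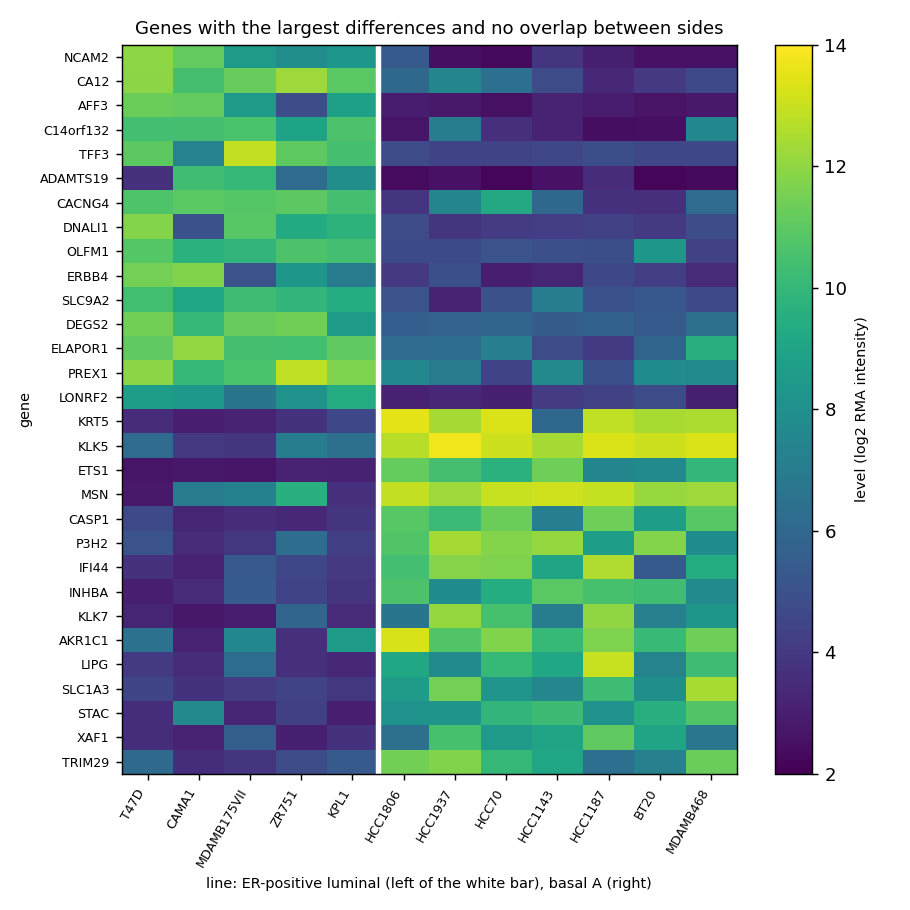
Levels (colour, log2 RMA intensity) of the 15 genes with the largest positive and the 15 with the largest negative difference among changed genes without overlap (rows), in the 5 ER-positive luminal lines left of the white bar and the 7 basal A lines right of it. The upper 15 genes are higher left of the bar, and the lower 15, from KRT5 to TRIM29, are higher right of it, with single departures such as KRT5 at 6.04 in HCC1143 and STAC at 7.63 in CAMA1.

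On the other side of the comparison, the second largest negative difference without overlap after KRT5 belonged to KLK5, a secreted serine protease of the kallikrein family. KLK5 read 6.18 in T47D, 4.0 in CAMA1, 3.84 in MDAMB175VII, 7.06 in ZR751 and 6.42 in KPL1. It was nearly level across the basal A lines, at 12.72 in HCC1806, 13.73 in HCC1937, 13.10 in HCC70, 12.38 in HCC1143, 13.31 in HCC1187, 13.10 in BT20 and 13.38 in MDAMB468. The gap between the sides was 5.32, the widest of all genes tested. Its difference of -7.60 (SE 0.54) had an adjusted p of 0.000104 by limma. The related kallikreins KLK7 (difference -5.47, adjusted p = 0.0237 by limma, 8 passes of 12) and KLK8 (difference -4.03, adjusted p = 0.0135 by limma) were lower as well, with KLK7 at 5.94 in ZR751 and 2.76 to 3.47 in the other luminal lines.

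ETS1, a transcription factor of the ETS family, was at background in every luminal line, at 2.69, 2.79, 2.68, 3.22 and 3.12 in T47D, CAMA1, MDAMB175VII, ZR751 and KPL1. The basal A lines ranged from 7.51 in HCC1187 to 11.36 in HCC1143 (difference -6.80, SE 0.66, limma adjusted p = 0.000955). CASP1, the caspase that cleaves the interleukin 1 beta precursor, read 3.23 to 4.66 in the luminal lines and 7.16 to 11.34 in the basal A lines (difference -6.33, SE 0.69, limma adjusted p = 0.00175). MSN, the gene of moesin, which links actin to the membrane, was uneven in the luminal lines, with 2.84 in T47D, 3.64 in KPL1, 6.96 in CAMA1, 7.27 in MDAMB175VII and 9.62 in ZR751. All basal A lines were above these, at 12.14 to 13.12.

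P3H2, a prolyl hydroxylase of collagen, and INHBA, the activin A subunit, had differences of -6.15 and -5.59. SLC1A3, a glutamate transporter, kept to 3.78 to 4.50 in the luminal lines and ranged from 7.57 in HCC1143 to 12.41 in MDAMB468 in the basal A lines (difference -5.37). LIPG, endothelial lipase, read 6.22 in MDAMB175VII and at most 4.03 in the other luminal lines, against 7.36 to 12.99 in the basal A lines. STAC, an adaptor protein, read 7.63 in CAMA1 and at most 4.29 in the other luminal lines, against 8.16 to 10.72 in the basal A lines. TRIM29, a tripartite motif protein of basal and squamous epithelia, ranged from 3.58 to 6.13 in the luminal lines and from 6.40 to 11.71 in the basal A lines. It did not pass without CAMA1, MDAMB175VII or ZR751 (9 passes of 12). AKR1C1, an aldo-keto reductase that reduces progesterone, was lower in the luminal lines by 5.39 on the log2 scale, but its sequence is close to that of AKR1C2 and the probes may not tell the 2 apart.

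The genes grouped by role are given next, each list beside the share over all genes tested, which was 1.23% higher and 1.27% lower. Of the 14 steroid and nuclear receptors tested, ESR1 alone changed. RARA, the retinoic acid receptor alpha and an estrogen target, came nearest among the rest with 8.69 ± 0.45 in the luminal lines and 7.30 ± 0.63 in the basal A lines (SD, n = 5 and n = 7, limma adjusted p = 0.0535). ESR2, the second estrogen receptor gene, was at background in all 12 lines.

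Of 15 luminal lineage factors, 5 were higher and none lower, and the median difference of the list was 1.72 against 0.05 over all genes. The 5 became 4 to 6 without 1 line and 1, XBP1, with a separate spread for each side. XBP1, a factor of the secretory pathway, was nearly constant in the luminal lines at 12.78 ± 0.13, against 11.20 ± 0.46 in the basal A lines (SD, n = 5 and n = 7), and changed in every alternative tried (difference 1.58, SE 0.20, limma adjusted p = 0.00396). SPDEF, an ETS factor of secretory epithelium, averaged 11.60 ± 0.34 in the luminal lines and 7.12 ± 1.84 in the basal A lines, where MDAMB468 reached 10.65 and BT20 8.40. TRPS1, a GATA type repressor, differed by 2.46 and did not overlap (11.81 to 13.18 in the luminal lines, 8.10 to 11.30 in the basal A lines, limma adjusted p = 0.0398, 6 passes of 12). GATA3 and AFF3 were the other 2. FOXA1 lay between 12.96 and 13.46 in the luminal lines and between 8.61 and 12.46 in the basal A lines, with a difference of 2.09 that did not pass (limma adjusted p = 0.0743). TFAP2B, an AP-2 factor, reached 11.77 in a luminal line but 3.84 in another, and did not pass (limma adjusted p = 0.108).

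Of 29 estrogen targets tested, 5 were higher in the luminal lines and none lower, 27 of the 29 had a positive difference, and the median difference was 1.81. These were CA12, TFF3, XBP1, GREB1 and ABAT. The count was 4 to 7 without 1 line, with the highest without BT20, 3 with the quality term and 2 with a separate spread. GREB1, a cofactor that estrogen induces through its receptor, ranged from 5.93 to 11.16 in the luminal lines and from 4.54 to 5.17 in the basal A lines, which were all at background (difference 3.93, limma adjusted p = 0.0142). ABAT, the enzyme that breaks down GABA, ranged from 10.03 to 12.04 in the luminal lines and from 5.98 to 10.75 in the basal A lines (difference 3.56, limma adjusted p = 0.0463, 1 pass of 12). SLC39A6, a zinc transporter, and EGR3, an early response factor, had differences of 1.95 and 4.20 with adjusted p of 0.0529 and 0.0525 by limma. CCND1, the gene of cyclin D1, was at 12.40 to 13.48 in the luminal lines and 11.19 to 13.54 in the basal A lines (difference 0.66, limma adjusted p = 0.4). The mean level over the 29 genes was 10.24 in T47D, 9.48 in CAMA1, 9.56 in MDAMB175VII, 10.73 in ZR751 and 9.79 in KPL1, and it lay between 7.51 in HCC1806 and 8.24 in MDAMB468 on the basal A side. The 2 luminal lines without PGR thus lay inside the luminal range of this mean.

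Some luminal secretory and surface genes were high in all luminal lines and others in single ones. Of 19 tested, 3 were higher, namely ERBB3, ERBB4 and ELAPOR1, and none was lower. SCGB2A2, the mammaglobin gene, ran from 3.90 to 13.64 in the luminal lines and from 3.46 to 8.70 in the basal A lines (difference 4.72, limma adjusted p = 0.189). PIP, the prolactin induced protein, ran from 3.60 to 13.45 in the luminal lines and from 2.75 to 8.43 in the basal A lines (difference 3.86, limma adjusted p = 0.282). AGR2, a disulfide isomerase of secretory cells, was at 12.20 to 13.75 in all luminal lines, but from 3.27 to 13.04 in the basal A lines (limma adjusted p = 0.152).

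Within the ERBB receptor family the 4 receptors differed in direction. EGFR was lower in the luminal lines, ERBB2 did not pass, and ERBB3 and ERBB4 were higher. ERBB3, a receptor with a weak kinase that signals through its partners, was at 12.72, 12.60, 12.61, 12.46 and 12.35 in T47D, CAMA1, MDAMB175VII, ZR751 and KPL1, against 10.78 to 12.08 in the basal A lines (difference 1.16, SE 0.19, limma adjusted p = 0.0105). ERBB4, a receptor for neuregulins, was at 11.50, 11.72, 5.07, 8.37 and 6.96 in the same luminal lines, against 3.02 to 4.93 in the basal A lines. MDAMB175VII was at background for ERBB4, as were all basal A lines. The ERBB4 difference of 4.81 (SE 1.02, limma adjusted p = 0.0335) had 4 passes of 12. ERRFI1, a feedback inhibitor of EGFR, was lower in the luminal lines by 1.04 on the log2 scale (limma adjusted p = 0.0278, 7 passes of 12), and was highest in HCC1187 at 13.10. None of the ligands passed, and of the 4 calls in the list 2, EGFR and ERBB3, were left with the quality term. TGFA, a ligand of EGFR, ran from 6.29 to 9.21 in the luminal lines and from 8.20 to 11.71 in the basal A lines (limma adjusted p = 0.149).

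Of 22 other receptor kinases, ROR1 and MET were lower in the luminal lines and none was higher, 9.09% of the list. ROR1, a receptor for Wnt ligands, was at 3.14 to 4.66 in the luminal lines and at 6.82 to 10.91 in the basal A lines, with HCC1187 highest (difference -4.53, SE 0.64, limma adjusted p = 0.00619). MET, the receptor of hepatocyte growth factor, was at 5.27, 5.40, 8.71, 8.68 and 10.42 in T47D, CAMA1, MDAMB175VII, ZR751 and KPL1, against 9.53 to 12.30 in the basal A lines, so that KPL1 lay above HCC1187. It had 2 passes of 12.

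Keratins were described by few members, since 9 of the 16 stratified keratins on the list, KRT14 and KRT17 among them, were not analysed here. KRT5 was the 1 of 5 tested that changed. None of 5 simple keratins changed by limma, and 1 had an unadjusted p under 0.05. KRT18, a keratin of simple epithelium, averaged 9.24 ± 0.49 in the luminal lines and 8.78 ± 0.32 in the basal A lines (SD, n = 5 and n = 7, limma adjusted p = 0.364). KRT7, another simple keratin, was at 9.80 to 13.11 in the luminal lines and at 12.81 to 13.26 in the basal A lines (difference -1.62, limma adjusted p = 0.0707). KRT19 lay between 11.24 and 11.68 in the luminal lines and between 7.27 and 11.34 in the basal A lines (limma adjusted p = 0.4).

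Of 18 basal lineage factors, ETS1, TRIM29 and RUNX3 were lower in the luminal lines and none was higher. The count was 1 without CAMA1, MDAMB175VII or ZR751 and with a separate spread, and 4 without HCC1187 or BT20. RUNX3, a runt domain factor, was at 4.06 to 5.73 in the luminal lines and at 6.85 to 8.78 in the basal A lines other than HCC1187, which read 4.84 (difference -2.87, limma adjusted p = 0.0365). It had 2 passes of 12. SOX10, a neural crest and basal cell factor, was at background in all 12 lines, and ELF5, a factor of secretory progenitors, ran from 5.89 to 12.72 in the luminal lines and from 3.80 to 13.47 in the basal A lines (limma adjusted p = 0.644).

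Of 14 genes of basement membrane adhesion, CAV1, MSN and CD44 were lower and none was higher in the luminal lines. The count was 1 without ZR751, 5 without HCC1187 and 0 with a separate spread. CAV1, the coat protein of caveolae, read 2.74, 2.76, 4.82 and 3.72 in T47D, CAMA1, MDAMB175VII and ZR751 but 9.19 in KPL1, against 7.33 in HCC1187 and 9.91 to 13.03 in the other basal A lines. It did not pass without ZR751 (11 passes of 12). CD44, the hyaluronan receptor, was at 5.51 to 8.17 in the luminal lines, against 6.73 in HCC1187 and 11.50 to 13.01 in the other basal A lines (difference -4.53, SE 0.96, limma adjusted p = 0.0326). CD44 had 2 passes of 12. The integrin subunits ITGB4, ITGA6, ITGA2, ITGB1 and ITGB6 had differences between -1.26 and -0.17, and none passed.

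Desmosome genes and the epithelial identity genes gave no call by limma among 12 and 13 tested, where 6 and 3 had an unadjusted p under 0.05. DSC3, a desmosomal cadherin of stratified epithelia, was at background in all luminal lines and between 9.31 and 11.53 in 5 basal A lines, but at 6.28 in HCC1187 and 3.34 in BT20, and did not pass (limma adjusted p = 0.0622). VIM, the mesenchymal intermediate filament, ran from 5.55 to 8.86 in the luminal lines and from 8.06 to 13.55 in the basal A lines, with HCC1143 highest (difference -3.56, limma adjusted p = 0.0724). TWIST1 went the other way, at 6.90 to 12.04 in the luminal lines and 3.32 to 11.64 in the basal A lines (difference 3.64, limma adjusted p = 0.261). None of 17 mesenchymal genes tested changed, with 2 at an unadjusted p under 0.05. Of the 17, 10 had a negative and 7 a positive difference.

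**Figure D3:**
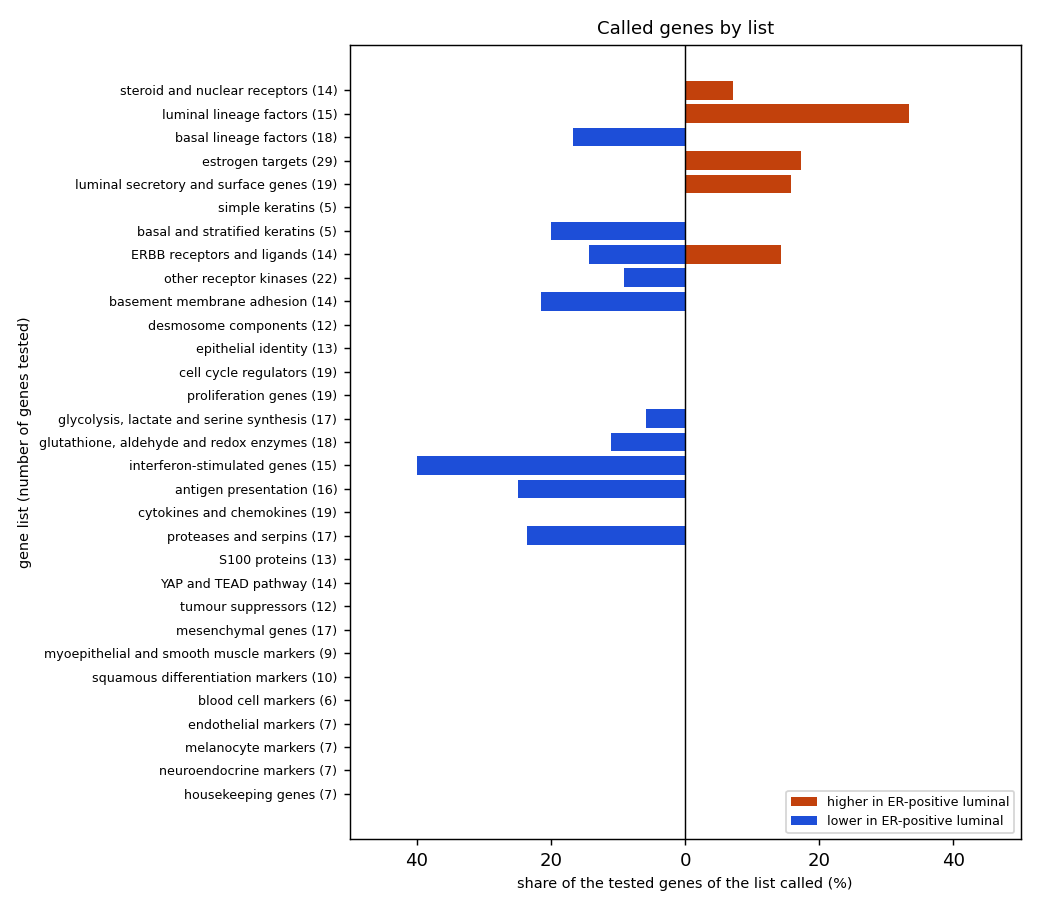
Share of the tested genes of each list that changed (horizontal axis, %), with genes higher in the ER-positive luminal lines to the right in orange and lower ones to the left in blue. The number of genes tested follows each list name. The luminal lineage factors reach 33.3% to the right and the interferon-stimulated genes 40% to the left, beside 1.23% and 1.27% over all genes tested.

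The interferon-stimulated genes had the largest share of changed genes among the 31 lists, 40%. Cells make these transcripts when type I interferon or viral nucleic acid is sensed. Of 15 tested, 6 were lower in the luminal lines and none higher, 14 of the 15 had a negative difference, and the median was -3.12. The 6 became 4 without CAMA1, ZR751, HCC1937 or HCC70, 4 with the quality term, as many as of the 15 luminal lineage factors, and 3 with a separate spread. IFIT3, a binder of viral RNA complexes, read 5.12 in T47D, 3.08 in CAMA1, 5.06 in MDAMB175VII, 3.64 in ZR751 and 4.72 in KPL1. The basal A lines read 8.80 in HCC1806, 10.44 in HCC1937, 9.24 in HCC70, 8.29 in HCC1143, 9.60 in HCC1187, 7.63 in BT20 and 8.40 in MDAMB468. All luminal lines were at background and all basal A lines above it, and the difference of -4.59 (SE 0.52, limma adjusted p = 0.00203) was 24.1-fold. IFIT2, its neighbour on chromosome 10, was 5.64 to 7.70 in the luminal lines and 9.32 to 12.31 in the basal A lines (difference -3.96, SE 0.57, limma adjusted p = 0.00679).

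IFI44, an interferon-induced protein, was at 3.21 to 5.34 in the luminal lines. In the basal A lines IFI44 ranged from 5.40 in BT20 to 12.59 in HCC1187 (difference -5.89, SE 1.05, limma adjusted p = 0.0148). All luminal lines and BT20 were at background for IFI44, so the lack of overlap there rests on levels under background. XAF1, a partner of the apoptosis inhibitor XIAP, was at 5.61 in MDAMB175VII and at 3.07 to 3.69 in the other luminal lines, against 6.43 to 11.07 in the basal A lines. MX1, a dynamin-like antiviral protein, and IFIT1 overlapped between the sides and had adjusted p of 0.0476 and 0.0364 by limma, with 4 and 2 passes of 12. BST2, also called tetherin, was the 1 member with a positive difference, at 9.78 to 11.90 in the luminal lines and 6.64 to 12.03 in the basal A lines (limma adjusted p = 0.7). The mean level of the 15 genes was 6.84 in T47D, 5.47 in CAMA1, 7.71 in MDAMB175VII, 6.12 in ZR751 and 6.77 in KPL1. On the basal A side it was 9.18 in HCC1806, 11.58 in HCC1937, 10.997 in HCC70, 8.95 in HCC1143, 11.22 in HCC1187, 8.11 in BT20 and 8.40 in MDAMB468. The other 46 lines ran from 4.80 to 11.60 with a median of 7.71, so HCC1937, HCC1187 and HCC70 were near the top of the series and the luminal lines at or under its middle.

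Antigen presentation genes ran in the same direction. Of 16 tested, 4 were lower in the luminal lines and none higher, all 16 had a negative difference, and the median was -1.66. The 4 became 1 without CAMA1, MDAMB175VII, HCC1937, HCC70 or MDAMB468, and 1 with the quality term or a separate spread. PSMB9, a subunit of the immunoproteasome, read 8.30, 6.63, 7.08, 7.28 and 6.60 in T47D, CAMA1, MDAMB175VII, ZR751 and KPL1, against 10.05 to 11.26 in the basal A lines (difference -3.41, SE 0.33, limma adjusted p = 0.000955). PSMB8, a second subunit, was at 5.17 in KPL1 and 7.44 to 10.62 in the other luminal lines, against 11.68 to 12.52 in the basal A lines (limma adjusted p = 0.0326, 7 passes of 12). NLRC5, the activator of class I genes, averaged 5.45 ± 0.26 in the luminal lines and 7.10 ± 0.77 in the basal A lines (SD, n = 5 and n = 7, limma adjusted p = 0.0376). NLRC5 had 2 passes of 12 and an adjusted p of 0.116 by limma with the quality term. TAPBP, the gene of tapasin, differed by -0.70, with 2 passes of 12. B2M, the light chain of class I molecules, did not overlap (11.97 to 12.90 in the luminal lines, 12.93 to 13.30 in the basal A lines) but did not pass (limma adjusted p = 0.0701). CD274, the gene of PD-L1, was at 2.72 to 3.51 in the luminal lines and at 3.81 to 8.74 in the basal A lines (difference -3.38, limma adjusted p = 0.0519).

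**Figure D4:**
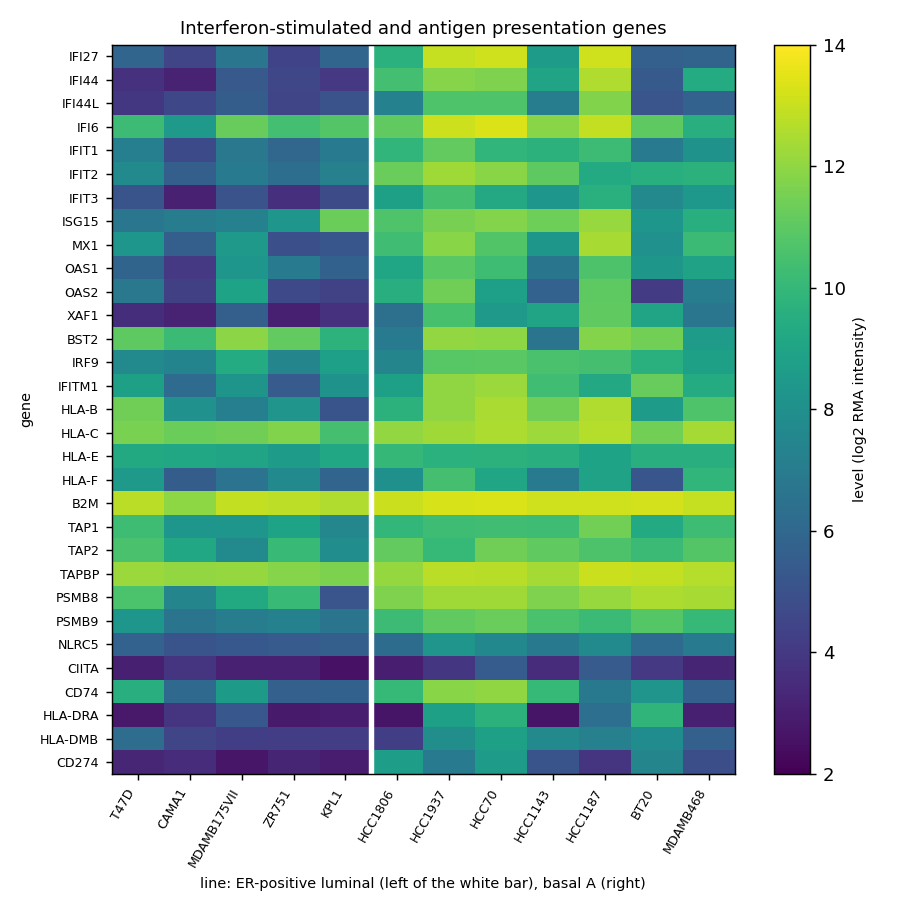
Levels (colour, log2 RMA intensity) of the 15 interferon-stimulated and 16 antigen presentation genes tested (rows) in the 5 ER-positive luminal lines left of the white bar and the 7 basal A lines right of it. HCC1937, HCC70 and HCC1187 hold the brightest columns, IFIT3 is at 3.08 to 5.12 left of the bar and 7.63 to 10.44 right of it, and BST2 is high on both sides.

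Promoter letters were read for the changed genes to see what the lower genes share that the comparison did not use. The sequences are from RefSeq on GRCh38.p14, and the windows searched hold 250 bases before and 50 after each gene's start. The core of the interferon-stimulated response element was searched as GAAA, any 2 bases and GAAA again, on both strands, and matches may overlap. It stood in 996 of all 27305 promoters (3.65%) and in 332 of 11899 promoters of tested genes (2.79%). Among the genes lower in the luminal lines it stood in 21 of 156 promoters (13.5%), and among the genes higher in them in 1 of 136 (0.735%), that of SIDT1 (2 passes of 12). Calls on the lower side were uneven too. DDX60 had 1 pass of 12, IFIT1 2, CARINH 3, MX1, GBP1 and CDC42EP3 4 each and BTN3A3 5. IFI44, IFIT3, PARP14, DTX3L and NMI had all 12. Of the 21 genes, 5 belong to the lists above (IFI44, IFIT1, IFIT3, MX1 and TAPBP) and 16 do not. The sides did not overlap for 11 of the 21, a smaller share than the 266 of all 371 changed genes. Among list members, 10 of 13 interferon-stimulated genes with a promoter entry held it, 6 of 12 antigen presentation genes and 0 of 23 estrogen targets. A match is a description of letters and was not tested as a binding site.

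The promoters of 5 of these genes, 3 from the interferon list and 2 from outside the lists, are shown as examples of where the matches stand, and were chosen after the matches were seen. Each is the 250 bases before the gene's start, 5′ to 3′ on the gene's own strand, with the matches in capitals.
IFIT3 promoter, chr10:89327747-89327996, plus strand: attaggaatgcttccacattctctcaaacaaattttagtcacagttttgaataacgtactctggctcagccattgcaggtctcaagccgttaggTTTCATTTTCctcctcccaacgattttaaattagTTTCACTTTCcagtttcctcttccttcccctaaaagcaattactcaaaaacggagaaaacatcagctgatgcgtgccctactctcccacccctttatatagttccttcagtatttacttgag
IFIT1 promoter, chr10:89392373-89392622, plus strand: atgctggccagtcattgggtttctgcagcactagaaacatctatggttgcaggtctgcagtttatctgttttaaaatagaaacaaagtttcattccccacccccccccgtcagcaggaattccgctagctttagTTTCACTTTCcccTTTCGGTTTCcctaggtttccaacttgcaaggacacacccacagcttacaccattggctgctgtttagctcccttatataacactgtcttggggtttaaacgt
IFI44 promoter, chr1:78649539-78649788, plus strand: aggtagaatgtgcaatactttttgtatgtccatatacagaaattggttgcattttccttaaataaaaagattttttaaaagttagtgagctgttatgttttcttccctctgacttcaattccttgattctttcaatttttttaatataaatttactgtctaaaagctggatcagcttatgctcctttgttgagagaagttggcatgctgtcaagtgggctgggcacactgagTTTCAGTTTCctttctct
PARP14 promoter, chr3:122680589-122680838, plus strand: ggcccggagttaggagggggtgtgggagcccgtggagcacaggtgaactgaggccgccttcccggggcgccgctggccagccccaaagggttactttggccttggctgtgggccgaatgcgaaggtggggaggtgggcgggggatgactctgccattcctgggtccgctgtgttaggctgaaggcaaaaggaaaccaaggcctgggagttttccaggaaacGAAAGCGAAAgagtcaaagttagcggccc
GBP1 promoter, chr1:89065209-89065458, minus strand: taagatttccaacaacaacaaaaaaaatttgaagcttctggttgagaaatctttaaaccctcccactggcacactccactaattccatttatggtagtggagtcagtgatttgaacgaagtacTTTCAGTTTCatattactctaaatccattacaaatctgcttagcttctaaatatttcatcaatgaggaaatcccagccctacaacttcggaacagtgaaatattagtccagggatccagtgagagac

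The IFIT3 and IFIT1 windows each hold 2 matches, at -156 to -147 and -122 to -113 for IFIT3 and at -116 to -107 and -103 to -94 for IFIT1, counted from -1 as the last base before the start. IFI44 holds 1 at -18 to -9, PARP14 1 at -29 to -20 and GBP1 1 at -127 to -118. PARP14, an ADP-ribosyltransferase, averaged 9.67 ± 0.41 in the luminal lines and 11.75 ± 0.48 in the basal A lines (SD, n = 5 and n = 7), a difference of -2.08 (SE 0.26, limma adjusted p = 0.00305). GBP1, a guanylate-binding GTPase, was at background in all luminal lines at 3.51 to 3.88 and at 4.21 to 7.77 in the basal A lines (difference -2.87, SE 0.61, limma adjusted p = 0.0335, 4 passes of 12). IFIT1 overlapped narrowly, with 4.67 to 7.17 in the luminal lines and 6.98 to 11.14 in the basal A lines.

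The estrogen response element, searched as GGTCA and TGACC around any 3 bases, was too rare in these windows to compare, with 18 among all promoters and 0 among the changed genes or the estrogen targets. A single copy, searched as AGGTCA on both strands, stood in 13.9% of all promoters, 10.2% of those of tested genes, 15 of 136 of the genes higher in the luminal lines (11.03%), 11 of 156 of the lower ones (7.05%) and 3 of 23 estrogen targets (13.04%). No match in these windows says only that the letters are not there.

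The secreted proteases and their inhibitors were another list with many negative differences. Of 17 tested, KLK5, KLK7, KLK8 and SERPINB5 were lower in the luminal lines and none was higher, 16 of the 17 had a negative difference, and the median was -2.82. The 4 became 2 without CAMA1 or KPL1, 7 without BT20, and 1, KLK5, with the quality term or a separate spread. SERPINB5, known as maspin, was at 3.75 to 7.50 in the luminal lines and 6.30 to 12.81 in the basal A lines (difference -5.44, limma adjusted p = 0.0256, 6 passes of 12). KLK6 and KLK10 had differences of -4.36 and -5.15 with adjusted p of 0.0802 and 0.0748 by limma. The mean level over the list was 5.38 ± 0.42 in the luminal lines and 8.56 ± 0.89 in the basal A lines, where BT20 was lowest at 6.85. All 19 cytokines and chemokines had a negative difference, with a median of -1.74, but none passed by limma, and 8 had an unadjusted p under 0.05. CXCL3, a neutrophil attractant, came nearest, at 3.48 to 3.83 in the luminal lines and 3.88 to 6.83 in the basal A lines (limma adjusted p = 0.0823).

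Of 17 genes of glycolysis and serine synthesis, PSAT1 alone changed, and it was lower in the luminal lines. PSAT1, a transaminase of serine synthesis, averaged 8.71 ± 0.85 in the luminal lines and 10.58 ± 0.51 in the basal A lines (SD, n = 5 and n = 7, limma adjusted p = 0.0245). It did not pass without CAMA1, ZR751, HCC1937 or MDAMB468 (8 passes of 12). PHGDH, the enzyme before it, ran from 9.70 to 11.73 in the luminal lines and from 10.29 to 12.80 in the basal A lines and did not pass (limma adjusted p = 0.169). Of 18 redox and aldehyde enzymes, AKR1C1 and ALDH1A3 were lower, with 5 called without HCC1187 and 0 with a separate spread. ALDH1A3, a retinaldehyde dehydrogenase, was at 8.99, 5.54, 11.02, 9.64 and 8.51 in T47D, CAMA1, MDAMB175VII, ZR751 and KPL1, against 11.15 to 12.77 in the basal A lines (difference -3.35, limma adjusted p = 0.0342, 5 passes of 12).

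None of 19 cell cycle regulators and none of 19 proliferation genes changed, by limma, with median differences of -0.12 and -0.07 and with 3 and 2 genes at an unadjusted p under 0.05. CDK6, a kinase that drives entry into S phase, was at 9.67 and 9.80 in MDAMB175VII and KPL1 but 3.58 to 5.95 in the other luminal lines, against 9.14 to 11.36 in the basal A lines (limma adjusted p = 0.0926). CDC20, an activator of the anaphase complex, averaged 10.43 ± 0.92 in the luminal lines and 11.57 ± 0.25 in the basal A lines (SD, n = 5 and n = 7, limma adjusted p = 0.0964). None of the 12 tumour suppressors, 13 S100 proteins, 14 YAP and TEAD pathway genes and 7 housekeeping genes tested changed, with 1, 6, 3 and 2 of them at an unadjusted p under 0.05. A separate spread for each side gave none in any of these lists without calls either.

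No list of markers of another cell type gave a call, since none of the blood cell, endothelial, melanocyte, neuroendocrine, squamous or myoepithelial and smooth muscle markers tested (6, 7, 7, 7, 10 and 9 genes) changed by limma, and 2, 0, 1, 1, 2 and 2 of them had an unadjusted p under 0.05. The leukocyte genes PTPRC, CD3E and MS4A1 were at background in all 12 lines, as were the hemoglobin gene HBB, the endothelial genes TEK and EMCN and the melanocyte genes TYR and MLANA. The summed intensity of the blood cell list was 7.52 to 8.55 in the luminal lines and 7.69 to 11.3 in the basal A lines on the log2 scale. Single genes stood high in single lines, such as HCLS1, a hematopoietic adaptor, at 10.78 in HCC1806 and at most 3.34 in the other basal A lines. CD14, the coreceptor for lipopolysaccharide, was at 4.85 to 5.78 in the luminal lines and at 5.49 to 11.17 in the basal A lines (limma adjusted p = 0.0704).

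The luminal lines resembled each other more than the basal A lines did. After each gene's mean over the 12 lines was removed, the correlation over the tested genes between 2 luminal lines was 0.09 to 0.28 with a median of 0.19 over 10 pairs. Between 2 basal A lines it was -0.16 to 0.21 with a median of -0.01 over 21 pairs, and between a luminal and a basal A line it was -0.40 to -0.06 with a median of -0.24 over 35 pairs. These values describe lines that share the centring, and they carry no test. Without the centring all pairs correlated highly, with a median of 0.90 between luminal lines, 0.85 between basal A lines and 0.83 between the sides. Pairs of luminal lines, at 0.87 to 0.91, still lay above all pairs between the sides, at 0.78 to 0.86. The line most like each of the 12 was on its own side. ZR751 was the most like line of T47D, CAMA1, MDAMB175VII and KPL1, whereas HCC1187 and BT20 reached only 0.05 and 0.06 with their most like line, MDAMB468. The median SD per gene was 0.46 in the luminal lines and 0.59 in the basal A lines, and it was larger in the basal A lines for 9505 of the 14850 genes.

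**Figure D5:**
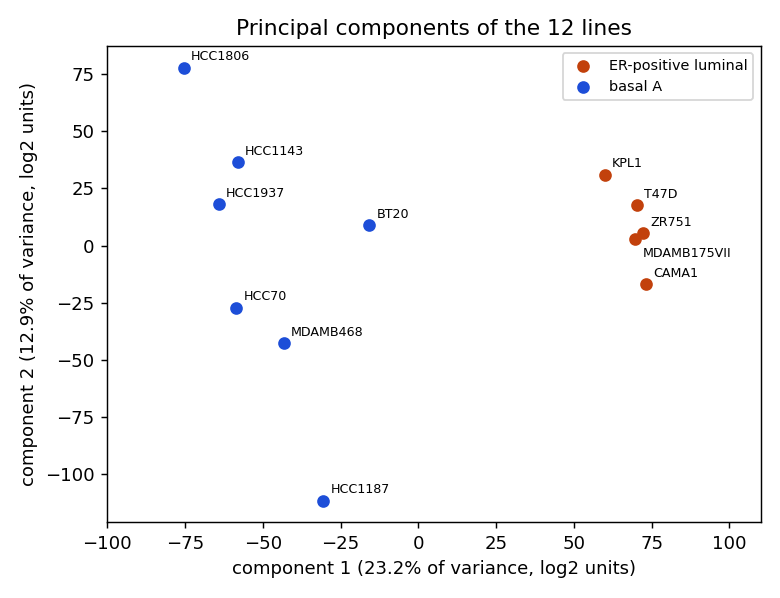
First and second principal components (23.2% and 12.9% of the variance, in log2 units) of the 12 lines over the genes tested, with ER-positive luminal lines in orange and basal A lines in blue. The luminal lines lie together at 59.9 to 73.3 on component 1, the basal A lines are spread from -75.4 to -15.8, and HCC1187 stands alone at -111.4 on component 2.

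Each line also departed from its own side at particular genes, and the changed gene with the largest departure is given for each. On the luminal side, T47D had TOX3, a chromatin factor, at 3.31 against 5.98 to 10.64 in the other luminal lines, and ZR751 had AFF3 at 4.84 against 8.47 to 11.29. The other TOX3 probe set was flat and under background, at 4.86 to 5.02 in the luminal and 4.66 to 5.02 in the basal A lines. CAMA1 had B3GNT5, a glycosyltransferase of lactosylceramide, at 9.48 against 2.82 to 5.81. MDAMB175VII had SDHAF3, an assembly factor of succinate dehydrogenase, at 9.18 against 2.13 to 2.98, within the 8.09 to 10.58 of the basal A lines. KPL1 had APOD, a lipocalin, at 6.83 against 12.83 to 13.71 in the other luminal lines.

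On the basal A side, HCC1143 departed most at KRT5, as given above. HCC1806 had PDZK1IP1, a small membrane protein, at 5.15 against 9.01 to 13.25 in the other basal A lines, inside the luminal range of 4.66 to 6.08. HCC1187 had GHR, the growth hormone receptor, at 10.33 against 2.99 to 5.22 in the other basal A lines, and the luminal lines ran from 7.89 to 11.39. BT20 had CDYL2, a chromodomain protein, at 10.36 against 3.37 to 6.17, and the luminal lines ran from 8.97 to 10.91. Other CDYL2 probe sets differed between the sides by only 1.08 and 0.48. MDAMB468 had IFI16, a sensor of DNA, at 4.69 against 8.10 to 11.82 in the other basal A lines. HCC70 had CNTNAP2, a neurexin family protein, at 9.15 against 3.83 to 7.09, and HCC1937 had APOD at 9.19 against 3.70 to 8.42. The differences of GHR, CDYL2 and TOX3 had 1 pass of 12 each, PDZK1IP1 3, IFI16 4, APOD 5, SDHAF3 8, CNTNAP2 9 and B3GNT5 11.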

How the data were processed

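The authors deposited log2 intensities made with RMA in Affymetrix Power Tools, per the submitters' processing notes, which give no versions. RMA corrects background, sets all arrays to one distribution and summarises probes, so differences are relative to the other arrays. Whether all 58 arrays were normalized together, and the genome build of the probe sets, are not given in the sources used here.

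Of 52377 probe sets, 35184 named 1 gene in the platform annotation, 374 named several and 16819 none, and only the first were used. For each of 19798 genes the probe set of highest mean over 58 lines stood for the gene, and 8731 genes had more than 1 to choose from. Genes above the array median in at least 3 lines, 14850 in all, were tested with limma 3.58.1 in R 4.3.3 (eBayes with trend and robust, Benjamini-Hochberg). A list's summed intensity is the log2 of the sum of its measured members on the linear scale. Summaries used Python 3.11.15 with numpy 2.4.6 and pandas 2.3.3.

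In simulated data with 14850 genes for this comparison, the fit called 25 of 100 planted differences of 1 log2 unit. Of planted differences of 2 units it called 66 of 100, and of unchanged genes 7 of 14650. Whether these counts hold for the measured lines was not tested. In those lines the SD per gene was larger on the basal A side for 9505 of 14850 genes. Their changed genes numbered 84 with a separate spread for each side and 594 with array weights. The precision rests on 5 and 7 arrays.

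The lines, gene lists and tests were chosen with earlier results of these data known. The genes named were 6 markers, the 15 largest differences in each direction among changed genes without overlap, the 3 members of each of 31 lists with the smallest adjusted p, the changed gene with the largest departure in each line, and the 3 changed genes with the largest SD in each side. List members outside this rule are given by their list. The alternatives were other probe set, normalization, filter, eBayes, array quality, spread and threshold settings and leaving out each line.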

Additional observations from a re-analysis of the deposited data

Results flagged for a closer look

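In 27 of 240 tests (11.25%), each of 1 named gene within 1 side, a single line lay far from the others of its side by Dixon's criterion for 5 or 7 values, where chance alone gives about 1 in 20 for genes not chosen by their values. These genes were chosen by their values, 12 of them for a departing line or a large SD, so the share is no test against chance. Those 12 hold 6 of the 27. MDAMB175VII accounted for 6 of them and HCC1187 for 5. No explanation was tested.

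Among the luminal lines, MDAMB175VII was highest for SDHAF3 at 9.18 (next 2.98), PECAM1, an endothelial adhesion gene, at 8.03 (next 5.17), IFI16 at 6.59 (next 3.61), LIPG at 6.22 (next 4.03) and XAF1 at 5.61 (next 3.69), and lowest for CLDN3, a tight junction claudin, at 8.22 (next 10.93). KPL1 was lowest for APOD at 6.83 (next 12.83) and highest for the keratins KRT80 at 12.10 (next 9.90) and KRT83 at 6.48 (next 5.09), and for HCLS1 at 3.30, which is under background. ZR751 was lowest for C14orf132 at 8.96 (next 10.39) and highest for KLK7 at 5.94 (next 3.47) and CD14 at 5.78 (next 5.07). CAMA1 was highest for STAC at 7.63 (next 4.29) and TJP1, a tight junction scaffold, at 12.07 (next 11.91).

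Among the basal A lines, HCC1187 was highest for GHR at 10.33 (next 5.22), ERRFI1 at 13.10 (next 12.31) and ADAMTS19 at 3.51, which is under background, and lowest for CD44 at 6.73 (next 11.50) and MET at 9.53 (next 11.21). HCC1143 was lowest for KRT5 at 6.04 (next 12.39) and GATA3 at 7.65 (next 9.49). BT20 was highest for CDYL2 at 10.36 (next 6.17) and OLFM1 at 8.36 (next 5.05). HCC1806 was highest for HCLS1 at 10.78 (next 3.34) and lowest for the pseudokinase PTK7 at 8.85 (next 9.40). HCC70 was highest for TYRP1, a melanosome enzyme, at 5.29 (next 3.04), which is under background.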

How the results depend on the processing

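No paired analysis was possible because the numbers of the lines within a side are names in accession order and pair no line of one side with a line of the other. Against 371 changed genes (182 higher and 189 lower in the ER-positive luminal lines), leaving out 1 line gave 156 to 441 (73 to 209 higher, 83 to 232 lower), with the fewest without ZR751 and the most without HCC1187. Array quality as a term gave 192 (88 higher, 104 lower), array weights 594 (316 higher), a separate spread for each side 84 (46 higher, 38 lower), and an adjusted p under 0.01 gave 69 (31 higher, 38 lower), and the cause was not tested except that the last is stricter by construction. The count without a filter was 281, with all 19798 genes tested. Requiring a gap of at least 1 log2 unit cut the genes without overlap to 51 from 442, by construction. The median correlation within the basal A lines turned to 0.0103 over the 2000 most variable genes, against -0.0117 over all. Of the 60 changed genes named by the rule, 38 passed without any 1 of the lines and 24 in every alternative fit, 20 of them also at an adjusted p under 0.01, and none changed sign. The alternative without probe sets marked for cross-hybridisation gave no value, since no probe set of a single gene is so marked. Low levels are limited by the background of 5.56: 36 genes higher in the luminal lines were at background in all basal A lines and 33 lower ones in all luminal lines, so their folds rest on levels near background.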

Other observations

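The genes in this part were chosen after their values were seen, and they carry no support beyond their own values. Of genes outside the lists, several with a role in innate immunity were among those lower in the luminal lines, and the rest of such genes was not counted. TLR3, the receptor for double-stranded RNA, was at 3.13 to 4.99 in the luminal lines and 5.80 to 9.39 in the basal A lines (difference -3.78, limma adjusted p = 0.00619), and the adjacent genes TLR1 and TLR6 differed by -3.45 and -2.40, TLR1 passing in 3 of the 12 fits without 1 line (3 passes of 12). IRF1, an activator of interferon responses, averaged 7.16 ± 1.12 in the luminal lines and 9.51 ± 0.68 in the basal A lines (SD, n = 5 and n = 7, limma adjusted p = 0.0308, 6 passes of 12). IFNGR1, the receptor for interferon gamma, averaged 9.44 ± 0.53 in the luminal lines and 11.20 ± 0.48 in the basal A lines (SD, n = 5 and n = 7, limma adjusted p = 0.00994). IL15 and its receptor chain IL15RA differed by -2.72 and -2.30, and neither overlapped, IL15RA with 9 passes of 12. The apolipoproteins L APOL3 and APOL6 differed by -3.87 and -4.70, and the neighbours SAMD9 and SAMD9L, which restrict poxviruses, by -4.28 and -4.13, SAMD9L with 5 passes of 12.

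Of the 182 genes higher in the luminal lines (1.23% of all tested), 9 encode subunits or assembly factors of the respiratory chain or ATP synthase. The other genes of these complexes were not counted, so no share of them can be set beside the 1.23%. Not all went this way. SDHAF3, the assembly factor of succinate dehydrogenase given above with its passes, was lower, with a difference of -5.43. SDHA, a subunit of that enzyme, differed by -0.45 and did not pass (limma adjusted p = 0.202). COX7C averaged 12.64 ± 0.09 in the luminal lines and 12.31 ± 0.11 in the basal A lines (SD, n = 5 and n = 7, limma adjusted p = 0.0445). ATP5MJ differed by 0.38, COX6C by 0.40, ATP5F1D by 0.52, COX14 by 0.55, NDUFB10 by 0.74, NDUFC1 by 0.82, ATP5MC2 by 1.0 and SURF1 by 1.12, with adjusted p between 0.0237 and 0.0476 by limma. The 9 had 1 to 9 passes of 12, and COX7C, COX6C, COX14, ATP5F1D, NDUFB10 and NDUFC1 lost their call with the quality term. TGFB3, a ligand of the TGF beta family, was at 10.11 to 12.18 in the luminal lines and 5.30 to 8.69 in the basal A lines (difference 4.29, limma adjusted p = 0.00619). TGFBR2, a receptor of that family, was at 2.48 to 8.71 in the luminal lines and 9.48 to 11.18 in the basal A lines (difference -4.65, limma adjusted p = 0.0336, 4 passes of 12).

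In genome order, 30 pairs of adjacent genes both changed, among 14829 tested genes placed in order and with 2.50% of all genes tested changed. Of the pairs, 28 moved in the same direction, 19 lower and 9 higher in the luminal lines. Some pairs are related genes, such as TLR1 and TLR6 or KLK7 and KLK8. How many pairs would arise without any link between neighbours was not worked out, so the counts are a description only. CCDC170, next to ESR1, was at 4.30 to 7.25 in the luminal lines and 2.30 to 2.95 in the basal A lines (difference 3.26, limma adjusted p = 0.00679). Only ZR751 and KPL1 were above background for CCDC170, and T47D, CAMA1 and MDAMB175VII were under it, as were all basal A lines. AFF3 and LONRF2 on chromosome 2, and ABCG1 (10 passes of 12) and TFF3 on chromosome 21, were other higher pairs, and CAV1 and MET on chromosome 7 and CASP4 and CASP1 on chromosome 11 were lower ones. PRRT3 and its antisense gene PRRT3-AS1 went in opposite directions, by 2.15 and -3.78, with 7 and 11 passes of 12. Whether the probes read the strand is not given in the sources used here, so the 2 cannot be told apart with certainty.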
